A study of Mus musculus with 12 samples.

Results

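The 10 genes described here encode transcription factors that set or keep the identity of the urothelium, the lining of the bladder: Pparg, Foxa1, Gata3, Elf3, Klf5, Grhl2, Grhl3, Ehf and Ovol1, which are treated as luminal regulators, and Trp63, the regulator of basal cells. They were chosen by symbol, are 10 of the 23337 genes counted in each of both tables, and all 10 were tested in every fit. RNA came from peeled urothelium of mice labelled Stag2-WT or Stag2-KO. Stag2, on the X chromosome, encodes a part of cohesin, which shapes chromatin loops and keeps sister chromatids together. All animals of both genotypes ate feed containing TMX (taken to mean tamoxifen) for a week, and tissue was taken 1 week or 1 month after the diet began, with 3 libraries in each of the 4 groups. The labels name neither the Cre transgene nor its promoter, nor the age or sex of the animals, so it is not given here which cells were induced.

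The urothelium is a layered epithelium. Basal cells rest on the basement membrane and express Trp63 and keratin 5, intermediate cells lie above them, and superficial umbrella cells carry uroplakin plaques that seal the surface. PPARG, a nuclear receptor that acts with a retinoid X receptor, drives urothelial maturation together with the pioneer factor FOXA1 and the zinc finger factor GATA3, while p63, the product of Trp63, supports basal stratified epithelium. The labels state the purpose as finding the molecular effects of inactivating Stag2, and the title ties Stag2 to DREAM, which keeps genes of the cell cycle off during quiescence.

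Promoter sequence shows which short factor sites lie next to the start of these regulators. RefSeq promoters of build GRCm38.p6, 250 bases before to 50 after a start site, were found for 5 of the 10 genes (Pparg with 3 start sites, Foxa1, Gata3, Elf3 and Grhl3; 7 promoters in all). Both strands were searched for 9 motifs. The letters were GATAAG for the Gata family and, for Ets factors such as Elf3 and Ehf, CGGAAG. Grainyhead factors were searched by the letters AACNNGTT, whereas the Klf family has the letters GGGNGTGG. The Fox family has the letters TGTTTNC. The CHR element, to which the DREAM complex binds, has the letters TTTGAA, and the E2F site was searched by the letters TTTCNCGC. The PPAR direct repeat is AGGNCA repeated after 1 base, and the p53 family site is the run CATG repeated after 6 bases. The 4 promoters below are a selection. Those of Foxa1, Gata3 and Grhl3 each hold a match to a motif of the regulators' own families, as do the Pparg promoters not shown. The other, an internal Pparg start site, holds the CHR letters of the complex in the study's title. Capitals mark the match, and each promoter reads 5′ to 3′ on the strand of its gene.
Foxa1, chr12:57546062-57546361, minus strand: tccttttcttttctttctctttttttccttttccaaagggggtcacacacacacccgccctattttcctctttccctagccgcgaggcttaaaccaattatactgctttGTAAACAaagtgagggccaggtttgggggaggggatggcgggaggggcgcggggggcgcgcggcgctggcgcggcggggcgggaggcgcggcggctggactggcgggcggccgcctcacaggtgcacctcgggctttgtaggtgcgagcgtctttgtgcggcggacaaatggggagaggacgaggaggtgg
Gata3, chr2:9878551-9878850, minus strand: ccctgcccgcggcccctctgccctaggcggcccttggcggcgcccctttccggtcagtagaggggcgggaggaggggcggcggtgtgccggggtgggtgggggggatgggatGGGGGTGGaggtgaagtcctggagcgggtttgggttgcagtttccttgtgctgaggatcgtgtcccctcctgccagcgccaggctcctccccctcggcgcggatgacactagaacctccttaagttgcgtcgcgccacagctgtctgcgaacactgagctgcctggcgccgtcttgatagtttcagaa
Grhl3, chr4:135573583-135573882, minus strand: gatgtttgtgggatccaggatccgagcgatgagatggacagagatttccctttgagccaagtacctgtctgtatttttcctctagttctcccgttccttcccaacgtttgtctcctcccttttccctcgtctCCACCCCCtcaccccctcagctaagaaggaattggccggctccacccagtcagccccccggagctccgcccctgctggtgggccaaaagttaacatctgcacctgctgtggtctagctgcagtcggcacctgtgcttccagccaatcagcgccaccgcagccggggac
Pparg, internal start site, chr6:115421816-115422115, plus strand: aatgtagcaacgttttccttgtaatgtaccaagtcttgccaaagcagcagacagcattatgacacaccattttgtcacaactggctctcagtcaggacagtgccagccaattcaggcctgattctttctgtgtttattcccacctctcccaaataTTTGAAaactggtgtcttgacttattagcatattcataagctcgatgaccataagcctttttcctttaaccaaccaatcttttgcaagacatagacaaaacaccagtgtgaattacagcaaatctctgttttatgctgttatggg

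The Foxa1 promoter held a Fox match at -141 bases from the start site, on the strand opposite to the gene, and such a match is in 20.5% of all 32851 promoters of the table. The Gata3 promoter held a Klf match at -138, and the Grhl3 promoter held a Klf match at -118 on the opposite strand, a motif found in 17.6% of promoters. The other 2 Pparg promoters each held the Ets letters, at 15 and at -124, which are in 16.9% (16.85%) of promoters, and the CHR letters of the internal start site are in 17.9%. The Elf3 promoter held none of the 9 motifs. None of the 7 promoters matched the Gata (7.44% of promoters), Grhl (4.20%), E2F (2.09%), PPAR (0.381%) or p53 family (0.712%) letters. These shares are the background of each motif, and a match here describes letters, not binding.

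Total counts per library ran from 5580961 to 9497088. Counts were converted to CPM, counts relative to the library total, scaled by TMM, a factor that evens out library composition. Because the kit makes 1 fragment near the 3′ end of each transcript, CPM were compared between genes without dividing by length. Stag2 was 122, 106 and 162 CPM in WT against 75.9, 59.7 and 65.3 in KO at 1 week. At 1 month it was 58.9, 60.1 and 46.2 CPM in WT against 38.4, 37.2 and 19.8 in KO. The KO libraries were lower at both times without overlap and retained Stag2 RNA (log2 difference -0.89, SE 0.27, edgeR adjusted p = 0.198 at 1 week, and -0.88, SE 0.22, adjusted p = 0.0507 at 1 month). The labels give a batch: batch 1 is the whole of 1 week, and at 1 month batch 2 is replicates 1 and 2 of either genotype and batch 3 is replicate 3. The times cannot be told apart from the batches, so levels at both times are set side by side without a test. Xist counts were at most 13 in all 6 WT libraries, from 6392 to 10406 in all 3 KO libraries of 1 week, and 7764 in KO replicate 3 of 1 month, against 28 and 2 in the other KO libraries of that time, and the summed Y-linked counts went the opposite way. At 1 week, genotype and this sex difference cannot be told apart. KO replicate 3 of 1 week stood apart from its group in many genes, and the 1 week differences of the members, their levels per epithelial RNA and the gene lists are also given without it.

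The label of the tissue was checked against its markers. All 9 urothelial markers (Epcam, Cdh1, Krt5, Krt8, Krt18 and 4 uroplakin genes) were present in every group, with sums of 10063 to 13228 CPM in WT and 8552 to 12193 in KO at 1 week, and 14132 to 26832 in WT and 10524 to 14532 in KO at 1 month. RNA of other cells was present too. At 1 week the sum of 7 fibroblast markers was 3575 to 5476 CPM in WT and 4300 to 9754 in KO, the sum of 6 smooth muscle markers 111 to 284 and 350 to 1067, the sum of 6 endothelial markers 198 to 231 and 368 to 484, and the sum of 10 immune markers 161 to 282 and 318 to 607, so the last 3 did not overlap between genotypes. At 1 month the fibroblast sum was 9647 to 13001 in WT and 7804 to 9571 in KO, the smooth muscle sum 87.8 to 949 and 147 to 428, the endothelial sum 252 to 301 and 300 to 544, and the immune sum 693 to 1387 and 353 to 440. In such bulk samples, fewer cells of a type and less RNA per cell cannot be told apart. The part of these differences in the results below was not tested beyond a fit with a score of these markers, whose values are given where they changed the call of a member.

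The regulators spanned a wide range of levels. Gata3, whose factor is needed for luminal differentiation, was the most abundant of the 10 in every group, at 911, 854 and 1190.4 CPM in WT at 1 week and 1398, 1234 and 802 in WT at 1 month. Klf5, a zinc finger factor of proliferating and stratifying epithelium, followed with 712, 768 and 1069 CPM in WT at 1 week and 673, 611 and 687 at 1 month. Ehf, an Ets factor of epithelial cells, was next in WT at both times, at 481, 452 and 572 CPM at 1 week and 177, 182 and 86.4 at 1 month. In WT at 1 week 99.3% of the 17747 genes with a count were below Gata3, 99.2% below Klf5 and 98.6% below Ehf.

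Neighbours in that order were not always separated by their spread. In WT at 1 week the ranges of Gata3 and Klf5 overlapped, Klf5 and Ehf did not, and Ehf and Foxa1 did not. Below that gap the order was Foxa1 (82.6 ± 19.5 CPM, SD, n = 3), Trp63 (81.1 ± 5.32), Grhl2 (59.4 ± 19.8), Pparg (58.8 ± 16.1), Grhl3 (34.3 ± 7.25), Elf3 (33.3 ± 17.4) and Ovol1 (18.6 ± 2.17), and each of these overlapped the next. In WT at 1 month the order was Gata3, Klf5, Ehf, Foxa1, Grhl3, Trp63, Elf3, Grhl2, Ovol1 and Pparg, with gaps after Gata3, after Klf5 and after Foxa1 only. In KO at 1 week Ehf stood above Klf5 in the mean with overlapping ranges, and in KO at 1 month the first 4 were again Gata3, Klf5, Ehf and Foxa1.

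Pparg had the largest gap between the WT groups of both times in its place among all detected genes. It was 40.6, 71.1 and 64.7 CPM in WT at 1 week, above 82.4% of detected genes, and 6.06, 4.37 and 17.2 CPM in WT at 1 month, above 49.2% of 16712. Within 1 month the batch 3 library held 3.22 times the batch 2 mean in WT and 2.69 times in KO. Elf3, an Ets factor downstream of PPARG in urothelium, showed the same split, 2.36 times in WT and 2.30 times in KO, whereas Ehf was lower in batch 3, at 0.483 and 0.449 of batch 2. For Pparg, Elf3 and Ehf the batch therefore separated the 6 libraries of 1 month more than the genotype did. Adipocyte markers, a second tissue source of Pparg, summed to at most 0.385 CPM at 1 week, with Plin1, Cfd and Retn at 0 in all WT libraries and Plin1 and Retn at 0 in all KO libraries. At 1 month they reached 8.74 CPM in WT, with Plin1 at 0, and 73.8 CPM in 1 KO library. T and innate lymphoid markers, a second source of Gata3, summed to between 5.77 and 26.8 CPM over all 12 libraries, with no marker at 0 in every library of a group.

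**Figure D1:**
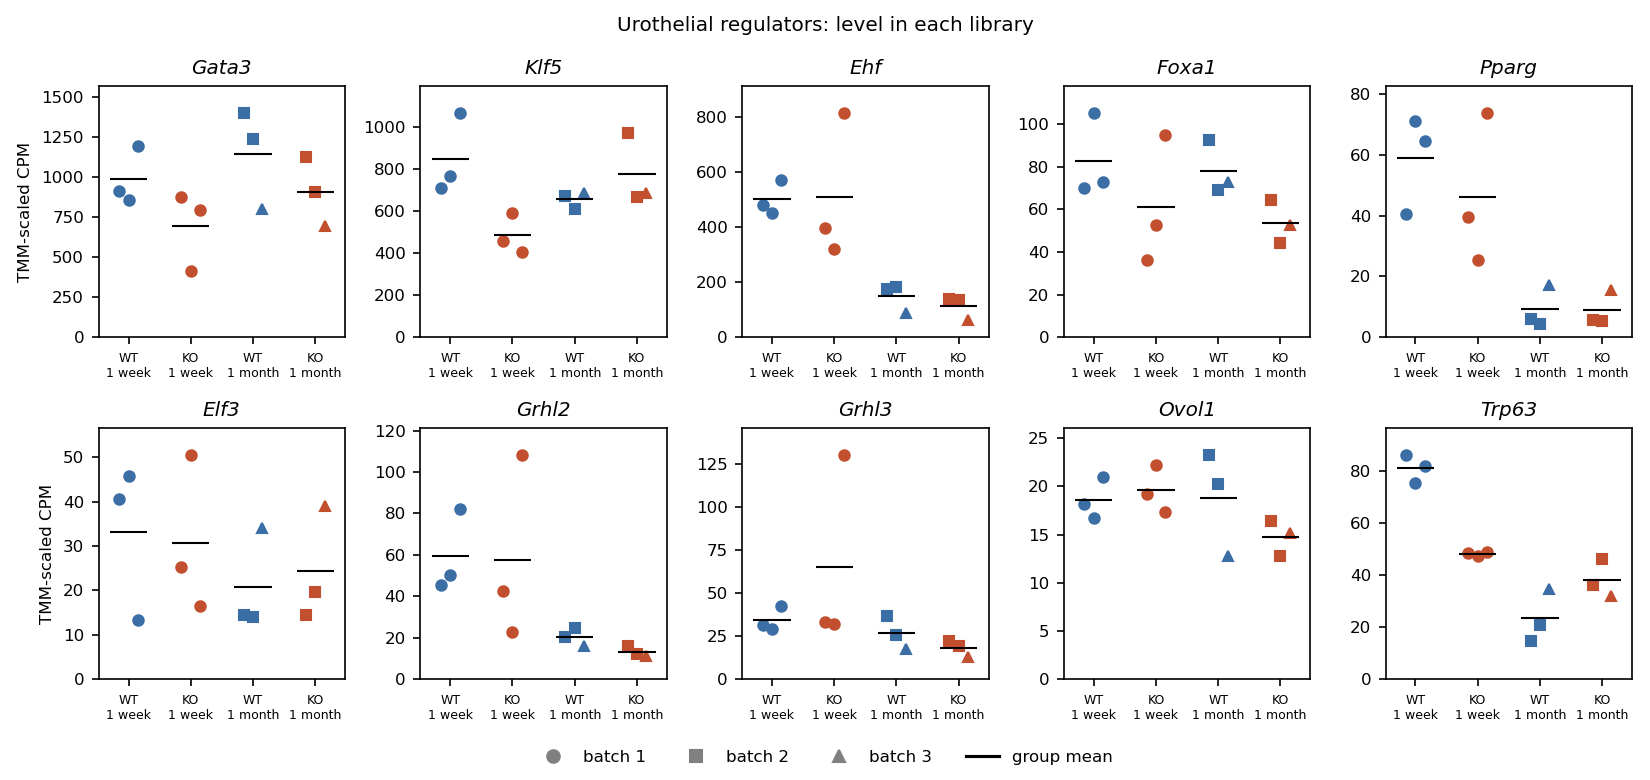
TMM-scaled CPM (y axis, linear, from 0, own scale for each gene) of the 10 regulators in each of the 12 libraries, grouped by genotype and time, with WT in blue and KO in orange, the symbol giving the batch and the black line the group mean. Trp63 is below every WT library in all 3 KO libraries of 1 week (47.1 to 48.7 against 75.4 to 86.0 CPM), and the triangle of batch 3 stands high for Pparg and Elf3 and low for Ehf in both genotypes at 1 month.

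At 1 week none of the 10 regulators passed the threshold between KO and WT, and the basal regulator Trp63 and the luminal regulator Klf5 were the only members whose groups did not overlap, both lower in KO. The test was edgeR's quasi-likelihood test with Benjamini-Hochberg adjustment over all genes at 0.05. It called 8 of 12754 genes (0.0627%), so a count of 0 among the members is near the background. All 5 sex-differing transcripts tested were among those 8, with Xist higher in KO and the 4 Y-linked genes lower. By unadjusted p under 0.05, 2 members and 1976 genes passed, and DESeq2 called 0 members and 883 genes. The median log2 difference of the members was -0.17, with 6 lower and 4 higher, against 0.02 over all genes tested.

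Trp63 (chr16:25683763-25892102, plus strand, GRCm38) was 86.0, 75.4 and 81.7 CPM in the WT libraries and 48.5, 47.1 and 48.7 in the KO libraries. The KO libraries lay close together and all below WT. The log2 difference was -0.69 (SE 0.24, edgeR adjusted p = 0.246), with values from -0.77 to -0.65 and adjusted p from 0.0751 to 0.647 over the alternatives. The annotated gene Gm27005 overlaps Trp63 on the same strand, so the counts of Trp63 are uncertain to that extent. In all, 14.1% of genes tested had all KO libraries below all WT libraries and 12.4% all above, so non-overlap of 2 members, both in the lower direction, is near the background.

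Klf5 (chr14:99298691-99315036, plus strand) was 712, 768 and 1069 CPM in WT and 458, 591 and 406 in KO. Every KO library was below every WT library. The log2 difference was -0.74 (SE 0.30, edgeR adjusted p = 0.297).

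The pioneer and hormone receptor group showed overlapping genotypes. Pparg (chr6:115360951-115490399, plus strand) was 40.6, 71.1 and 64.7 CPM in WT and 39.5, 25.6 and 73.8 in KO (log2 difference -0.28, SE 0.45). Foxa1 (chr12:57540628-57546916, minus strand), which opens closed chromatin for nuclear receptors, was 70.2, 105 and 72.6 CPM in WT and 36.2, 52.8 and 94.8 in KO (-0.37, SE 0.42). Gata3 (chr2:9857078-9890034, minus strand, overlapped on that strand by 9230102O04Rik) was 911, 854 and 1190.4 CPM in WT and 877, 413 and 796 in KO (-0.44, SE 0.36). In Pparg and Foxa1 the highest KO library was replicate 3, and it exceeded at least 2 of the WT libraries.

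Grhl2, Grhl3 and Ehf were likewise highest in that library among the KO libraries. Grhl2 (chr15:37233036-37363569, plus strand), which activates genes of epithelial junctions, was 42.4, 22.7 and 108 CPM in KO against 45.7, 50.5 and 82.2 in WT. Grhl3 (chr4:135541888-135573630, minus strand), needed for umbrella cell differentiation and barrier, was 33.5, 32.3 and 130.2 CPM in KO against 31.3, 29.0 and 42.6 in WT, a log2 difference of 1.02 (SE 0.59) that became -0.06 without KO replicate 3. Ehf (chr2:103263433-103303278, minus strand) was 395, 321 and 814 CPM in KO against 481, 452 and 572 in WT, and its difference went from 0.10 to -0.50 without that library. Elf3 (chr1:135253575-135258568, minus strand) was 40.6, 45.8 and 13.4 CPM in WT and 25.2, 50.5 and 16.6 in KO, and Ovol1 (chr19:5549136-5560646, minus strand), a zinc finger repressor of mesenchymal genes, was 18.2, 16.7 and 21.0 in WT and 19.3, 22.2 and 17.3 in KO. For Elf3 and Ovol1 neither genotype stood apart, and KO replicate 3 was their lowest KO library.

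Without KO replicate 3, 8 of the 10 regulators were lower in KO at 1 week. The median of the 10 was -0.66, against -0.03 over all genes tested. Past the threshold were 0 members and 320 of 13059 genes (2.45%). Foxa1 was then -0.90 (edgeR adjusted p = 0.153), Grhl2 -0.89, Pparg -0.88 (SE 0.31, adjusted p = 0.170), Klf5 -0.69, Gata3 -0.63 and Trp63 -0.77 (adjusted p = 0.0751). The other 2 were Elf3, at 0.18, and Ovol1. The left-out library also held 302 CPM of Zeb1 and 502 CPM of Zeb2, mesenchymal repressors of epithelial genes, against 42.8 to 52.9 and 98.9 to 117 in the other KO libraries, and 607 CPM of summed immune markers, the highest of the 6. Its fibroblast sum of 4300 CPM was the lowest of the KO libraries (7582 and 9754 in the others). The smooth muscle sum was 889 CPM (350 and 1067 in the others) and the endothelial sum 484 (368 and 401). The part of these genes and sums in the levels of the regulators was not tested.

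**Figure D2:**
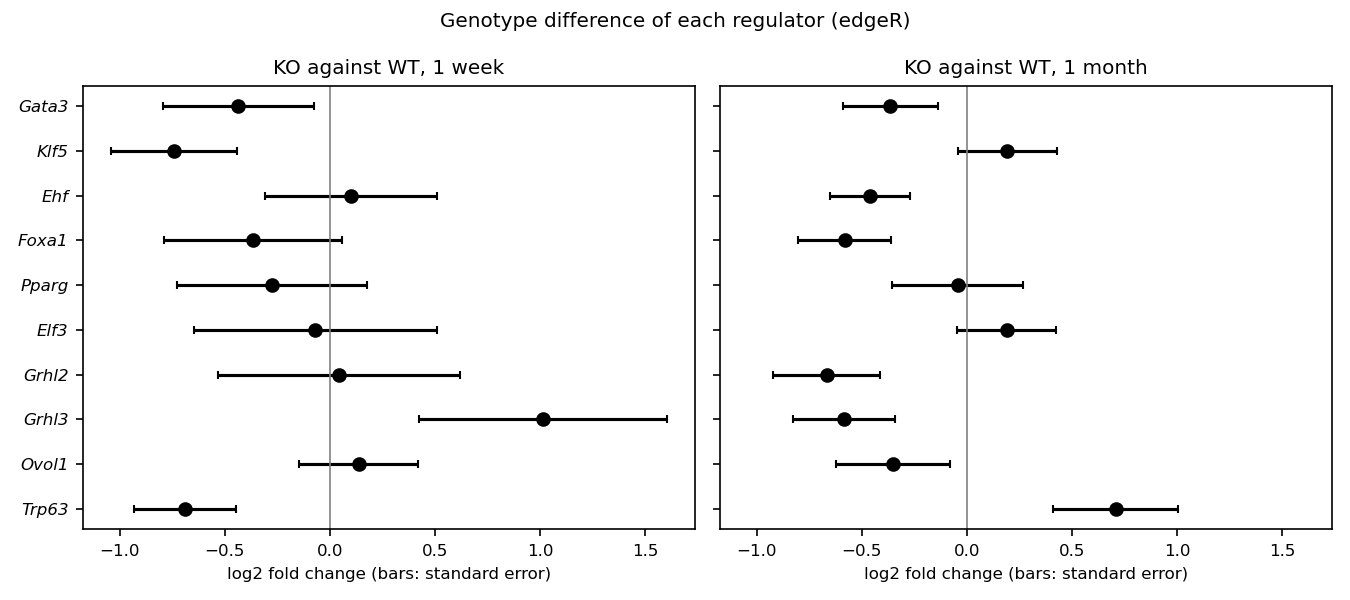
Log2 fold change of KO against WT (x axis) for each of the 10 regulators at 1 week (left) and 1 month (right), with points for the edgeR estimate and bars for its standard error. Trp63 is at -0.69 at 1 week and 0.71 at 1 month, Klf5 at -0.74 and 0.19, and the bars at 1 week are widest for Grhl2, Grhl3 and Elf3.

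At 1 month none of the 10 regulators passed the threshold either. Among luminal regulators 7 of 9 were lower in KO, Foxa1 and Grhl2 in every KO library, while Trp63 was higher in the mean. edgeR called 269 of 12139 genes (2.22%), so a count of 0 of 10 is near the background. By unadjusted p under 0.05, 5 members (Foxa1, Grhl2, Grhl3, Ehf and Trp63) and 2608 genes passed, and DESeq2 called 0 members and 731 genes. The median log2 difference of all 10 was -0.36, against -0.01 over all genes tested.

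Foxa1 at 1 month was 92.7, 68.9 and 72.9 CPM in WT and 64.3, 44.1 and 52.8 in KO. All KO libraries were below all WT libraries, as in 6.45% of the genes tested, while 6.88% had them all above. The log2 difference was -0.58 (SE 0.22, edgeR adjusted p = 0.158). It was -0.58 in batch 2 and -0.46 in batch 3, so both batches had the same direction. With a score of fibroblast, smooth muscle, endothelial and immune markers as a further term it was -0.74 (edgeR adjusted p = 0.0360). That passed, in a fit that called 1516 of 12139 genes. Over all alternatives the Foxa1 difference ran from -0.74 to -0.37 and its adjusted p from 0.0360 to 0.658.

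Grhl2 was 20.3, 25.0 and 16.0 CPM in WT and 16.0, 12.4 and 11.2 in KO, with the lowest WT value of 16.01 and the highest KO value of 15.96 almost equal. The log2 difference was -0.67 (SE 0.25, edgeR adjusted p = 0.159), and the batches gave -0.67 and -0.50. Grhl3 was 37.0, 25.7 and 17.8 CPM in WT and 22.4, 19.4 and 13.0 in KO, a difference of -0.59 (SE 0.24, adjusted p = 0.188 with edgeR), and each batch held a lower KO (-0.56 and -0.45). Both Grainyhead genes were thus lower in KO within each batch, by amounts that did not pass over all genes.

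Ehf was 177, 182 and 86.4 CPM in WT and 138, 137 and 61.7 in KO. The ranges overlapped because both batch 3 libraries were low, and within batches KO was lower by -0.38 and -0.49 on the log2 scale (pooled -0.46, SE 0.19, edgeR adjusted p = 0.184). Gata3 was 1398, 1234 and 802 CPM in WT and 1124, 908 and 693 in KO, again with low batch 3 libraries, and differed by -0.38 in batch 2 and -0.21 in batch 3 (pooled -0.36, SE 0.23). So 5 luminal regulators, Foxa1, Gata3, Grhl2, Grhl3 and Ehf, had lower KO values in both batches. Batch 3 holds 1 library per genotype, and the share of all genes lower in both batches was not computed.

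The other luminal regulators did not share that pattern. Pparg was 6.06, 4.37 and 17.2 CPM in WT and 5.73, 5.39 and 15.5 in KO (log2 difference -0.04, SE 0.31), with 0.10 in batch 2 and -0.15 in batch 3. Elf3 was 14.5, 14.0 and 34.0 CPM in WT and 14.5, 19.6 and 39.0 in KO (0.19, SE 0.24). Klf5 was 673, 611 and 687 CPM in WT and 972, 668 and 689 in KO (0.19, SE 0.23), with 1 KO library of batch 2 above the rest and a difference of 0.0052 in batch 3. Ovol1 was 23.3, 20.3 and 12.8 CPM in WT and 16.5, 12.7 and 15.1 in KO (-0.35, SE 0.27), and its direction differed between the batches (-0.58 and 0.24).

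Trp63 at 1 month was 14.7, 21.0 and 34.5 CPM in WT and 36.2, 46.1 and 31.8 in KO. Both KO libraries of batch 2 were above all WT libraries, and the KO library of batch 3 was below the WT library of its batch. The pooled log2 difference was 0.71 (SE 0.30, edgeR adjusted p = 0.194), made of 1.20 in batch 2 and -0.11 in batch 3. In batch 2 alone, with 2 libraries against 2, edgeR gave 1.15 (adjusted p = 0.0164), where 1474 of 12103 genes (12.2%) were called. Leaving out either batch 3 library leaves the other to be fitted by the batch term, so the values without WT replicate 3 (1.15, edgeR adjusted p = 0.0150) and without KO replicate 3 (1.15, adjusted p = 0.0155) are the batch 2 comparison again and no further evidence. Without WT replicate 1 the difference was 0.43. With the marker score as a further term it was 1.02 (SE 0.24, edgeR adjusted p = 0.0208), which passed in a fit that called 1516 of 12139 genes. The KO library of batch 3 is the 1 with Xist, so at 1 month batch and the sex transcripts move together within KO.

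**Figure D3:**
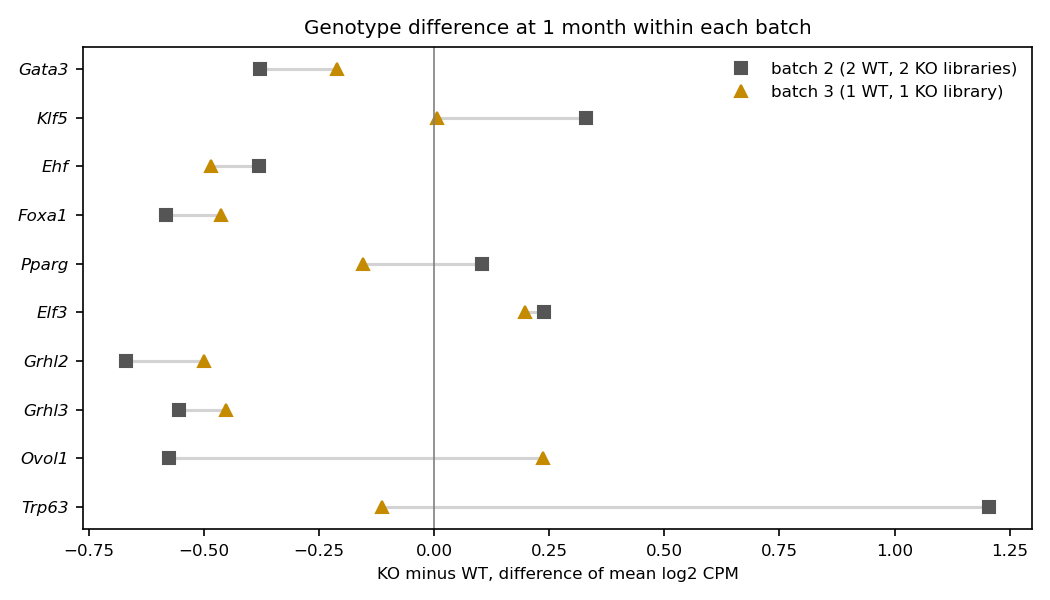
Difference of mean log2 CPM between KO and WT at 1 month (x axis) for each regulator, within batch 2 (squares, 2 libraries per genotype) and within batch 3 (triangles, 1 per genotype). Foxa1, Gata3, Grhl2, Grhl3 and Ehf lie below 0 in both batches, whereas Trp63 is at 1.20 in batch 2 and -0.11 in batch 3, and Ovol1 at -0.58 and 0.24.

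Whether the genotype difference itself differed between the times was tested as an interaction over all 12 libraries. For Trp63 the difference of differences (1 month minus 1 week) was 1.42 on the log2 scale (SE 0.40, edgeR adjusted p = 0.123), for Klf5 0.95 (SE 0.38, adjusted p = 0.208) and for Grhl3 -1.59 (SE 0.69, adjusted p = 0.234). These were the 3 members with an unadjusted p under 0.05, and the other 7 had adjusted p from 0.507 to 0.921. edgeR called 0 of 13122 genes (0%), with 2611 at an unadjusted p under 0.05, and the smallest edgeR adjusted p of any gene was 0.0879. DESeq2 called 836 genes and 1 member, Trp63, at 1.37 (adjusted p = 0.0358), and the values for Trp63 over the alternatives ran from 1.17 to 1.85 with adjusted p from 0.0358 to 0.328. Both the sex transcripts and the batches differ between the times in the way described above, so the interaction of Trp63 cannot be told apart from them.

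The balance of luminal regulators against the basal regulator was computed in each library as log2 CPM of a regulator minus log2 CPM of Trp63, with a prior count of 2. The mean of the 9 luminal regulators was 0.21, 0.55 and 0.49 above Trp63 in WT at 1 week and 0.75, 0.69 and 1.36 in KO. Every KO library was higher, a difference of means of 0.52 (0.42 ± 0.18 in WT, 0.93 ± 0.37 in KO, SD, n = 3). Without KO replicate 3 the difference was 0.30. At 1 month the values were 2.16, 1.47 and 0.75 in WT and 0.62, 0.05 and 0.66 in KO. Every KO library was lower, a difference of -1.02 (1.46 ± 0.70 in WT, 0.44 ± 0.34 in KO), with -1.48 in batch 2 and -0.09 in batch 3. The balance therefore pointed in opposite directions at both times, and at 1 month the difference lay in batch 2. No p is given for a score over chosen genes, and the direction follows Trp63, which enters each of the 9 differences.

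Single regulators showed how far each followed that balance. At 1 week Grhl3 (1.37) and Ovol1 (0.82) stood higher against Trp63 in all KO libraries than in all WT libraries, and the other 7 overlapped, with Klf5 at -0.05 since both genes were lower together. Grhl3 against Trp63 was -1.45, -1.37 and -0.94 in WT and -0.53, -0.54 and 1.41 in KO, the last in replicate 3. Trp63 itself was lower in every KO library at that time, and the log2 difference of Ovol1 alone was 0.14. At 1 month Foxa1 (-1.31) and Grhl2 (-1.38) stood lower against Trp63 in all KO libraries. Each of the 9 was lower in the mean, from -0.54 for Elf3 and for Klf5 to -1.38 for Grhl2. Gata3 against Trp63 was -1.09, with -1.58 in batch 2 and -0.10 in batch 3. Non-overlap against Trp63 was not counted over all genes, so these placements have no background.

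**Figure D4:**
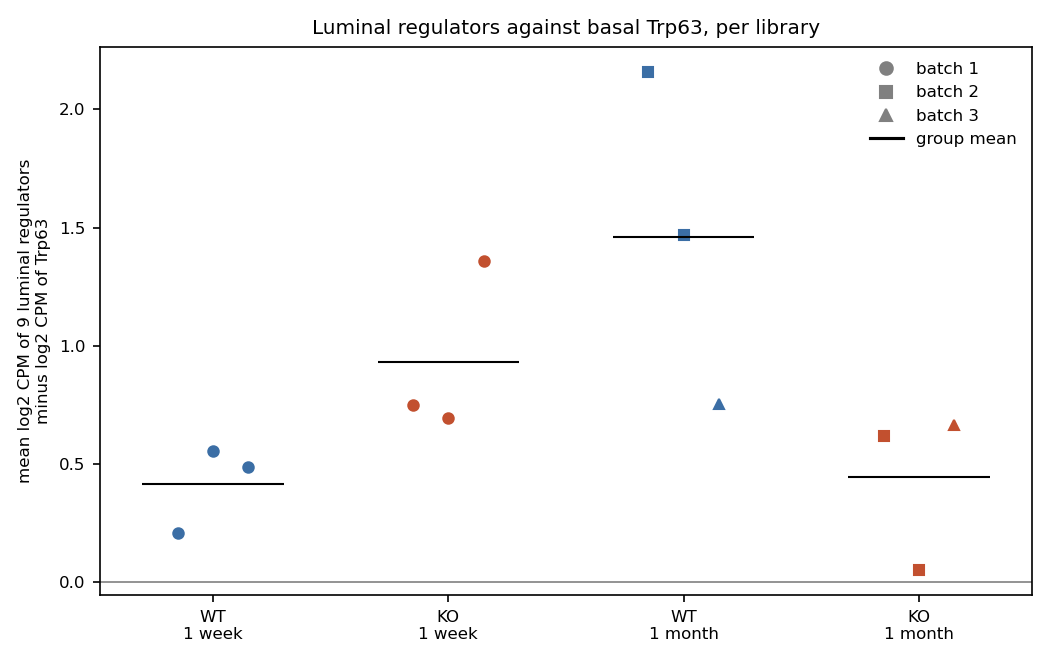
Mean log2 CPM of the 9 luminal regulators minus log2 CPM of Trp63 (y axis) in each of the 12 libraries by group, with WT in blue and KO in orange, the symbol for the batch and the black line for the group mean. The KO libraries lie above WT at 1 week (0.69 to 1.36 against 0.21 to 0.55) and below it at 1 month (0.05 to 0.66 against 0.75 to 2.16), where the batch 3 libraries of both genotypes are close (0.75 and 0.66).

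Levels were also set against epithelial RNA, as CPM per 1000 summed CPM of the epithelial genes Epcam, Cdh1, Krt8 and Krt18. Trp63 was 26.4 ± 0.889 per 1000 in WT and 18.2 ± 5.68 in KO at 1 week, lower in every KO library (log2 ratio of means -0.54), and 6.78 ± 3.50 in WT and 13.6 ± 2.32 in KO at 1 month, higher in every KO library (1.00). Klf5 was 276 ± 55.0 and 177 ± 26.9 at 1 week, lower in every KO library (-0.64), and 185 ± 24.6 and 276 ± 39.1 at 1 month, higher in every KO library (0.58). With all libraries the other 8 regulators overlapped between genotypes at both times. At 1 week the size also depended on the reference genes, with the median of the 10 at -0.04 with all 4, -0.41 with Epcam and Cdh1 and 0.27 with Krt8 and Krt18. Klf5 ran from -0.998 to -0.40 and Trp63 from -0.90 to -0.28 over those references. Without KO replicate 3 the 1 week median was -0.70, with Trp63 at -0.82 and Klf5 at -0.76, and Foxa1 (-0.99), Grhl2 (-0.90) and Ehf (-0.54) were then lower in both remaining KO libraries too. The share of all genes without overlap per epithelial RNA was not computed, with or without that library. On this scale Foxa1 (-0.17) and Grhl2 (-0.30) no longer separated at 1 month, and the direction of the 1 month values turned on the reference genes: the median of the 10 was 0.02 with all 4, 0.22 with Krt8 and Krt18, and -0.96 with Epcam and Cdh1. With Epcam and Cdh1, Klf5 went to -0.26 and Trp63 to 0.38 at 1 month. Epcam itself at 1 month was 37.4, 37.4 and 63.9 CPM in WT and 90.1, 65.2 and 78.0 in KO. Krt18, the most abundant of the 4 reference genes, was 2862, 2030 and 1659 CPM in WT and 1550, 1550 and 997 in KO.

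Partners of PPARG were measured in the same libraries. Of 15 partners and co-regulators (retinoid receptors, other PPARs, coactivators and corepressors), 0 were called at either time, nor at 1 week without KO replicate 3, with 6 higher and 9 lower at 1 week (median -0.07) and 8 higher and 7 lower at 1 month (median 0.04). Ppara, the fatty acid sensing PPAR, was 175, 206 and 219 CPM in WT and 113, 62.4 and 48.7 in KO at 1 week, a log2 difference of -1.37 (edgeR adjusted p = 0.156), lower in every KO library. Rxra, the partner receptor of PPARG, was 189, 176 and 162 CPM in WT and 139, 101 and 77.8 in KO, a difference of -0.68 (edgeR adjusted p = 0.325). With KO replicate 3 left out, Ppara was -1.21 (edgeR adjusted p = 0.0640) and Rxra -0.57. At 1 month Rarg, a retinoic acid receptor, was -0.74 (edgeR adjusted p = 0.0782).

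PPAR target genes, which handle fatty acids, were called at neither time. Of 15 tested out of 16, 0 passed, with medians of -0.12 at 1 week and -0.12 at 1 month. The 1 week median without KO replicate 3 was -0.48, with 11 lower and 1 of those past the threshold. Fabp5, a fatty acid carrier, was 275, 272 and 290.0 CPM in WT and 403, 794 and 997 in KO at 1 week, a log2 difference of 1.46 (edgeR adjusted p = 0.159), or 1.11 without KO replicate 3. At 1 month Plin2, a coat protein of lipid droplets, was -0.71 and Angptl4, an inhibitor of lipoprotein lipase, 1.31, neither past the threshold.

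Other epithelial regulators gave 0 calls among 32 tested of 34 at each time, with medians of -0.20 at 1 week and 0.02 at 1 month. The smallest p at 1 week belonged to Sox15 (-1.69), Hes1 (-1.87), a Notch target, and Ovol2 (-1.39), the paralog of Ovol1, each lower in every KO library. Without KO replicate 3 they were -1.47, -1.56 and -1.30, and again 0 of the 32 passed. At 1 month they belonged to Irf1 (1.08, edgeR adjusted p = 0.0518), Klf4 (-0.90, adjusted p = 0.0620), a factor of terminal differentiation, and Klf3 (-0.92, adjusted p = 0.0620). The 7 mesenchymal regulators, listed as opposed by Grhl and Ovol factors, had a median of 1.08 at 1 week, with 6 higher and 0 called. Zeb2 led with 2.50 (edgeR adjusted p = 0.160), then Zeb1 with 2.35, and both were highest in KO replicate 3. Without that library the median was 0.66, all 7 were higher, Zeb1 was 0.78 (edgeR adjusted p = 0.143) and Zeb2 was 1.26 (adjusted p = 0.0252), which passed. At 1 month their median was 0.03 over 6 tested. With all libraries, the 7 fibroblast, 6 endothelial and 6 immune markers tested were also all higher in KO at 1 week. Of 6 smooth muscle markers 5 were higher. Which cells held the RNA of the mesenchymal regulators was not tested.

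Among superficial and luminal structural genes a few passed at 1 month, and any action of these factors on them was not tested. Of 17 superficial and luminal genes tested out of 18, 0 were called at 1 week. Sprr2f, a small proline-rich protein of squamous and stressed epithelium, had the smallest p of that list, at 0.985 ± 0.488 CPM in WT and 91.5 ± 57.4 in KO (SD, n = 3), with every KO library higher (edgeR adjusted p = 0.0506). It passed without KO replicate 3 (adjusted p = 0.0153 with edgeR), the 1 gene of the list that did. At 1 month the median was -0.59, 12 were lower, and 2 lower and 1 higher passed. Krt20, the keratin of umbrella cells, was 290.0, 153 and 159.8 CPM in WT and 77.7, 57.0 and 49.0 in KO, which fell by 1.76 on the log2 scale (edgeR adjusted p = 0.00601). Tjp1, a tight junction scaffold, fell (-1.12, edgeR adjusted p = 0.0284), and Gsdmc2, a gasdermin, rose (1.18, adjusted p = 0.0292 with edgeR).

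Among 14 Grhl target genes tested out of 15, 0 were called at 1 week, where Prom2 had the smallest p (-2.12, edgeR adjusted p = 0.0927, and -2.03, adjusted p = 0.0251, without KO replicate 3), and 1 at 1 month. The latter was Dsp, desmoplakin of desmosomes, at 352, 305 and 262 CPM in WT and 114, 139 and 143 in KO, which fell by 1.26 on the log2 scale (edgeR adjusted p = 0.0132) without overlap. Epcam, also a Grhl target, was 0.75 higher (adjusted p = 0.0974 with edgeR), so the list held members in both directions and its median was 0.17.

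Basal structural genes and Trp63 targets gave 0 calls among 18 tested of 21 at 1 week and among 16 at 1 month, with medians of 0.35 and 0.01. The 1 week median without KO replicate 3 was 0.01, again with 0 called. Krt5, the basal keratin, was 600.4, 601 and 657 CPM in WT and 340.2, 700.4 and 444 in KO at 1 week. At 1 month it was 111, 200.1 and 504 CPM in WT and 611, 630.5 and 691 in KO, a log2 difference of 1.44 (SE 0.34, edgeR adjusted p = 0.0505), with every KO library above every WT library. As with Trp63, the WT library of batch 3 was the highest of the WT libraries. Krt14, another basal keratin, was at most 2.94 CPM in WT and 2.29, 43.4 and 176 in KO at 1 week, where Trp63 was lower in KO. Krt6a, a keratin of injured and squamous epithelium, was at 0 in all WT libraries and at 21.8 ± 20.2 CPM in KO at that time.

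Genes of other cell types that passed at 1 month were 4 of 6 tested immune markers, Cd74 (-1.76), C1qa (-1.95), C1qb (-1.38) and Csf1r (-1.13), all lower in KO, and the fibroblast and pericyte marker Pdgfrb (1.30, edgeR adjusted p = 0.0218), higher. With all libraries no other marker of another cell type was called at either time. Without KO replicate 3, the fibroblast markers Pdgfra (1.70) and Col1a1 (1.64), the smooth muscle marker Tagln (2.62) and the endothelial marker Egfl7 (1.21) passed at 1 week, all higher in KO.

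The genes nearest to 3 regulators in their pattern over the 12 libraries were found by the root mean square difference of log2 CPM centred on each gene's own mean, among 8765 genes with a mean of at least 10 CPM. For Pparg they were Zdhhc13 (0.38), 2610507B11Rik (0.48) and Gsr (0.48), where the median gene differed by 1.58. For Gata3 they were Zrsr1 (0.15), Sh3gl2 (0.18) and Uqcc (0.19), with a median of 0.73. For Trp63 they were Crim1 (0.20), Tfam (0.24) and C1d (0.24), with a median of 0.92. Crim1 had group means of 142 CPM in WT and 95.2 in KO at 1 week, and 51.5 in WT and 78.1 in KO at 1 month, the same order of groups as Trp63 at higher CPM. All points share the libraries, batches and depth, so these are descriptions.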

How the data were processed

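RNA from peeled urothelium in 12 libraries was read near transcript 3′ ends (QuantSeq, forward), sense strand, per the labels' protocols. The deposited values are raw counts per gene, with no replicates pooled. The submitters' processing notes name mm10, Bowtie, TopHat, HTSeq and DESeq2. Versions and the gene annotation are not given in the sources used here. Positions come from GENCODE M21 for GRCm38. All columns matched a sample (0 left without 1); WT replicate 3 of 1 month was matched by library name, since its title carries another animal number. Replicates were numbered in accession order. No replicate pair had counts within sampling noise (chi-square per degree of freedom 8.59 to 185). The labels do not say that replicates are separate animals beyond a number in each title, so p-values measure the spread between these libraries.

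Each time was fitted alone (6 libraries, with batch as a term at 1 month), and the interaction over 12 libraries with batch, with edgeR 4.0.16 in R 4.3.3: TMM, default filter on low counts, robust quasi-likelihood test, two-sided, Benjamini-Hochberg over all genes, threshold 0.05. The SE is the absolute log2 fold change over the square root of F. A floor of 3 counts applies to no member, whose counts were 25 or more in every library. On simulated counts with 200 genes changed 4-fold, 23.0% were recovered at 1 week (12530 genes), 93.5% at 1 month (11998 genes) and 2.50% in the interaction (12964 genes). False calls numbered 1, 14 and 0. No member's fitted difference reached 4-fold, so these shares do not give the recovery of changes of the members' size. Counts vary between libraries more than counting error, so precision is set by 3 libraries a group.

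Members and gene lists were chosen with earlier results of these data known. All members and Stag2 are named; from each list, every called gene, otherwise up to 3 with the smallest p; and the 3 nearest patterns of Pparg, Gata3 and Trp63. Some genes the rule selects are not reported here. Krt14, Krt5, Epcam and Krt18 values per library were added after their values were seen where the rule did not name them. Alternatives covered scaling, filter, dispersion, DESeq2 1.42.0, abundant genes, each library left out, batch, an Xist indicator, a marker score, 1 shared fit, prior count and reference genes. Gene lists and levels per epithelial RNA without KO replicate 3 of 1 week were added after seeing the data.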

Additional observations from a re-analysis of the deposited data

How the results depend on the processing

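No member passed in any of the 15 alternatives at 1 week. At 1 month 1 member, Trp63, passed with no filter on low counts (0.76, edgeR adjusted p = 0.0492), in batch 2 alone and with the Xist indicator (which repeats the batch 2 comparison), and 2 members, Trp63 and Foxa1, with the marker score as a term. In the same order, these fits called 1276 of 17990, 1474 of 12103, 1539 of 12139 and 1516 of 12139 genes. Such counts among 10 members are near the background. Leaving out each library in turn gave 0 to 1 members at 1 month, and in the interaction DESeq2 gave 1. No paired analysis was possible because the labels give no replicate numbers, and those used here were given in accession order.

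The sign of some members turned under an alternative, and no member was called in a main fit to compare them with. Library size alone in place of TMM moved the median of all genes to 0.22 at 1 month and 0.21 in the interaction, and gave Grhl2 -0.084 and Ehf -0.0032 at 1 week, Pparg 0.18 at 1 month and Foxa1 0.10 in the interaction. No filter gave Grhl2 -0.025 at 1 week and Pparg 0.00073 at 1 month. The marker score gave Pparg 0.15 and Gata3 0.40 at 1 week. Pparg at 1 month was 0.057 in batch 2 alone and 0.052 with the Xist indicator. Leaving out each library gave ranges at 1 week of -0.66 to 0.24 for Elf3, -0.89 to 0.40 for Grhl2, -0.063 to 1.32 for Grhl3 and -0.50 to 0.32 for Ehf, and of -0.18 to 0.053 for Pparg at 1 month. In the interaction the ranges were -0.018 to 0.80 for Pparg, -0.48 to 0.29 for Foxa1, -0.15 to 0.26 for Gata3, -0.049 to 0.87 for Elf3, -1.06 to 0.19 for Grhl2 and -0.77 to 0.0040 for Ehf. The cause was not tested. The median per epithelial RNA at 1 month was -0.96 with Epcam and Cdh1 as reference. The luminal balance against Trp63 kept its direction, from 0.30 to 0.64 at 1 week and from -1.37 to -0.67 at 1 month.

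Counts over all genes moved more: at 1 week 8 became 62 with no filter, 883 with DESeq2, 553 in 1 fit of 12 libraries, 0 with the marker score and 0 to 320 with a library left out. At 1 month 269 became 0 without batch as a term and in 1 fit of 12 libraries, 561 with library size alone, 1276 with no filter, 731 with DESeq2, 1474 in batch 2, 1539 with the Xist indicator, 1516 with the marker score and 45 to 1522 with a library left out. In the interaction 0 became 137 with no filter, 836 with DESeq2 and 0 to 440 with a library left out.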
